A study of Mus musculus with 4 samples.

Results

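The genes described here encode the machinery of G2 and mitosis: cyclins and mitotic kinases, the spindle checkpoint, kinetochores, spindle motors, condensins and the proteins of chromosome separation and cytokinesis. The list holds 50 genes, chosen by name, and a gene took the value of its probe set with the highest mean signal over the arrays among probe sets annotated with that symbol alone. Of the 50, 47 had such a probe set, out of 12393 genes in the whole series, and all 47 were bright enough to be tested, out of 7510 tested genes. Ccnb1, Cdca8 and Espl1 had none and are not analysed here.

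Gene expression was measured on Affymetrix Mouse 430A 2.0 arrays in NF639, a mouse line grown from a mammary tumour. The tumour arose through an ErbB2 (neu) transgene under a mammary tumour virus promoter, which both groups share. The original population, with no selection named in the labels, had 2 arrays, and a pool of NF639 cells resistant to epigallocatechin gallate (EGCG), a polyphenol of green tea, had 2. The RNA came from separate experiments per the series' text. The labels give no dose or time of EGCG, do not say whether it was present at harvest, and do not say whether arrays of the same number share an experiment. The resistant cells are 1 pool, so the arrays measure repeats of that pool and not separate selections.

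In a dividing cell, cyclin A and cyclin B switch on the kinase Cdk1, and the Polo and Aurora kinases build the spindle. Kinetochores tie chromosomes to spindle microtubules while the checkpoint holds back the anaphase-promoting complex (APC/C), a ubiquitin ligase. Once released, the APC/C has securin and cyclin B destroyed, sister chromatids part and the cell is cleaved. Transcripts of these genes accumulate late in the cycle, so that in a culture their level depends both on how many cells are in G2 and mitosis and on the RNA in each. In bulk RNA these cannot be told apart.

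The values are MAS5 signals, brightness on a linear scale that the authors had scaled to a common level per array. The median signal per array was 114 to 135.2, while the median of the 47 members was 1505 and 1502 in the original population, against 1283 and 1195 in the resistant pool. The spiked bacterial controls BioB, BioC and BioD separated the arrays by number: all 14 of their probe sets were brighter on array 2 than on array 1, with ratios of 1.39 to 2.36 for original and 1.39 to 2.46 for resistant cells. Differences are therefore also given for each same-numbered pair, resistant 1 against original 1 and resistant 2 against original 2. Original array 2 stood apart in an 18S ribosomal RNA probe set, with 4005.3 against 346.7 to 624.3 on the other arrays. Of 8 epithelial markers on the arrays, only Erbb2 passed the filter on dim probe sets (280.7 to 326.2). Epcam had signals of 1.4 to 6.7, Cdh1 of 6.7 to 15.3 and Krt18 of 7.2 to 25.5, so these defining epithelial markers were near the floor on all 4 arrays. Fibroblast genes were bright in both groups, with summed signals over 8 genes of 7537.8 and 6333.8 (original), and 8063.3 and 6092.3 (resistant). Those of 6 endothelial genes summed to 45.2 and 72.4, and 54.3 and 48.9, and those of 4 adipocyte genes to 36.8 and 37.5, and 59 and 52. For 7 leukocyte genes the sums were 680.6 and 487.7, and 564.8 and 490.8. Of these 7, 4 passed the filter on dim probe sets, while Ptprc was at 7.4 to 14.8. None of these marker genes passed the test over all genes. With the replicate number as a term in the fit (described below), 5 of the 6 tested fibroblast genes passed, in both directions: Col3a1 (1.99), Col1a1 (0.99) and Pdgfra (0.72) higher, and Dcn (-2.15) and Col1a2 (-0.62) lower on the log2 scale. The summed signals do not show these opposite differences. Over all tested genes 3.09% passed lower and 2.73% higher with that term. The part of other cells in the results was not tested.

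Transcripts of G2 and mitosis were for the most part modestly lower in the resistant pool, led by Cenpe, Ect2, Cenpf, Kif23 and Ube2c, while others, such as Cenpa, Mad2l1, Pttg1 and Racgap1, lay near or above 0 with arrays that overlapped between the groups. The median log2 difference of the 47 members, resistant minus original on the scale log2(signal + 3), was -0.18, and 38 of 47 lay below 0. Over all 7510 tested genes the median was 0.02, and 47.2% lay below 0. On its brightest probe set no member differed by as much as 2-fold, and differences ran from -0.85 for Cenpe to 0.14 for Cdc25c. Dimmer probe sets of Plk4, Kif23 and Cdc20 exceeded 2-fold, at -1.13, -1.01 and -1.39.

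None of the 47 members passed the test over all genes (limma, Benjamini-Hochberg adjusted p under 0.05), against 0.226% of all tested genes (0.133% lower). At an unadjusted p under 0.05 there were 12 members lower and 0 higher, where 3.94% of all genes were lower and 3.95% higher. Both resistant arrays lay below both original arrays in 20 members (42.6%) and above both in 0; the shares over all genes were 17.3% below and 19.8% above. In 18 members, all lower, the difference between the groups exceeded the difference between the arrays of either group. That condition was met by 38.3% of members and by 25.2% of all genes, the latter counted in either direction. With the replicate number as a term in the limma fit, 8 members passed, all lower (17% of members, against 3.09% of all genes lower and 2.73% higher). These were Cenpe, Ect2, Cenpf, Kif23, Ube2c, Plk4, Ccna2 and Incenp. Their falls were 1.37-fold to 1.80-fold. That fit has 1 residual degree of freedom, and limma gave no weight to a gene's own spread. The spread used was the trend over all probe sets at that gene's brightness. Its p-values therefore do not measure how well the same-numbered pairs of a gene agree. Incenp passed with -0.13 in pair 1 and -0.79 in the other. The members were brighter than most genes, with a median signal of 1355 against 520.1 over all tested genes. The shares over all genes were not matched for brightness. The SE printed for genes below are from the fit without the replicate number.

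The size of the group difference depended on which arrays were used. It was a median of -0.28 without original array 2 and also -0.28 without resistant array 1, -0.17 without original array 1 and -0.14 without resistant array 2. The number of members below 0 was then 43, 45, 33 and 30, in that order. The 12 members at an unadjusted p under 0.05 became 6 without original array 2, 7 without original array 1, 10 without resistant array 2 and 13 without resistant array 1. Within the same-numbered pairs the medians were -0.17 (numbered 1) and -0.24 (numbered 2), and 30 members were lower in both pairs and 5 higher in both. Arrays of 1 group also differed: the members' median for array 2 minus array 1 was -0.15 among the original and -0.19 among the resistant arrays, close in size to the difference between the groups. Over all tested genes these medians were -0.04 and -0.06.

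**Figure D1:**
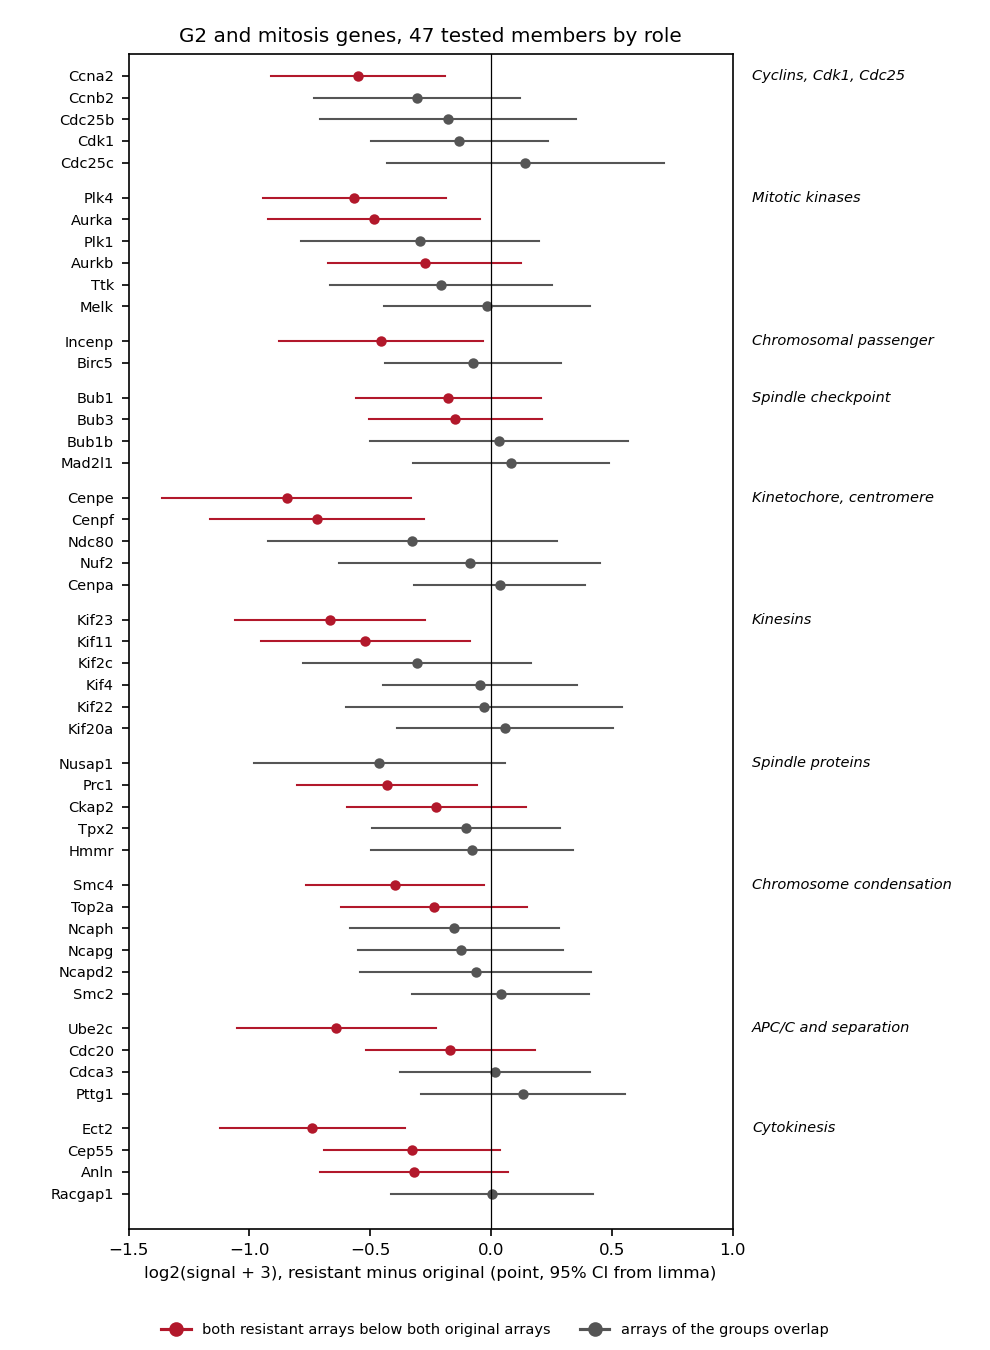
Each point is 1 of the 47 tested members, grouped by role, at its difference in log2(signal + 3) between the resistant pool and the original population (2 arrays each), with the 95% confidence interval from limma. The 20 red genes, such as Cenpe at -0.85 and Ect2 at -0.74, had both resistant arrays below both original arrays, and no gene had both above.

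The regulatory sequence just upstream is shown for 4 of the lower members because late cell-cycle promoters are known for a shared pair of motifs. NF-Y binds CCAAT boxes, and the cell-cycle genes homology region (CHR, here TTTGAA or TTCGAA) binds the MuvB complexes. The search set no order or spacing between them. Both strands were searched in RefSeq promoters of GRCm38.p6, from 250 bases before to 50 after the annotated start, and overlapping matches were counted. The table had windows for 43 of the 50 genes. The printed genes are those with the smallest p that held both motifs. Each stretch runs 5′ to 3′ on the gene's strand from 160 bases before the start to 10 bases from it onward. Capitals mark a CCAAT box (ATTGG when on the other strand) or a CHR (TTCAAA when on the other strand).
Ect2: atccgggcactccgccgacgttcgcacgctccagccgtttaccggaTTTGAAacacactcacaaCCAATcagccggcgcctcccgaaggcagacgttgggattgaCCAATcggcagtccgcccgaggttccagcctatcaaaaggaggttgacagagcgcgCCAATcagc
Kif23: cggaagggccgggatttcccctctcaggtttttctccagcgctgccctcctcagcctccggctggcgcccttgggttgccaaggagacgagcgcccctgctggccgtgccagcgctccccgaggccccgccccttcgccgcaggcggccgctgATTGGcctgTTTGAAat
Cenpf: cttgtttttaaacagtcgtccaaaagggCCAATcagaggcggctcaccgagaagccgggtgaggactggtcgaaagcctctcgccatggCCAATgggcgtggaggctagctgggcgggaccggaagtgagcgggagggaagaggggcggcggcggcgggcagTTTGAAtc
Ube2c: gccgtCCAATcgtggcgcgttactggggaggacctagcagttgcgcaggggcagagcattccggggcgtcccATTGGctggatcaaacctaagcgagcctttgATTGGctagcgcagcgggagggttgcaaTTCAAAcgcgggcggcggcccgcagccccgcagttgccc

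These stretches lie at chr3:27153869-27154038 on the minus strand for Ect2, chr9:61946790-61946959 on the minus strand for Kif23, chr1:189688077-189688246 on the minus strand for Cenpf and chr2:164769769-164769938 on the plus strand for Ube2c. In Cenpf and in Kif23 the CHR begins at position 3 counted from the start, and in Ube2c 29 bases before it. In Ect2 the CHR shown lies 114 bases before the start, upstream of the CCAAT boxes at 96 and 55 bases before it and at position 2, and a further CHR at position 40 is outside the stretch. Cenpe, with the largest difference, held a CCAAT box 12 bases before the start and neither form of the CHR in this window.

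Across the members with a window, 34 of 47 windows held a CCAAT box (72.3%, against 37.4% of all 32851 windows and 37.5% of windows of tested genes). A CHR was in 37 (78.7%, against 19.2% and 13.5%). Both motifs were in 32 windows (68.1%), against 7.52% of all windows and 5.4% of windows of tested genes. TTTGAA was in 35 and TTCGAA in 4 (17.9% and 1.56% of all windows, 11.6% and 2.16% of those of tested genes). The windows of Bub1b and Top2a held both forms. The letters TTTNNCGC, which resemble an E2F site, were in 8 windows (17%, against 5.17% of all windows and 9.13% of those of tested genes). Both motifs, in any order and at any spacing, were in 12 of 16 genes whose groups did not overlap and in 15 of the 24 other tested members with a window. A match is a stretch of letters and no measure of binding.

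Among the cyclins and their kinase, Ccna2, which encodes cyclin A, differed most. Its signals were 3674.7 and 3247.2 in the original population, against 2375.6 and 2340.4 in the resistant pool (the order used for all genes below). Both resistant values lay below both original ones, a log2 difference of -0.55 ± 0.162 (SE; limma adjusted p = 0.369, and 0.00378 with the replicate number as a term). Its other probe set, nearly as bright, gave -0.39 and did not pass with that term (limma adjusted p = 0.0886). Ccnb2, a B-type cyclin, had 2225.6 and 1737, against 1770.9 and 1428, which overlap (-0.31 ± 0.191 SE). Cdk1, the kinase that both cyclins switch on, had 4687.6 and 5220, against 4297.7 and 4752.5, also overlapping (-0.13 ± 0.165 SE). The Cdc25 phosphatases remove the inhibitory phosphates from Cdk1. Their genes lay on either side of 0, with Cdc25b at -0.18 and Cdc25c at 0.14, and Cdc25c was the dimmest member with a mean signal of 227.8.

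All 6 mitotic kinase genes were fitted below 0, with a median of -0.28. Plk4, which starts centriole duplication, had signals of 1505.1 and 1390.6, against 1017.4 and 937.9. The groups were well apart, at -0.57 ± 0.171 (SE; limma adjusted p = 0.383, and 0.021 with the replicate number as a term). Its other 2 probe sets gave -0.64 and -1.13 and passed with that term (limma adjusted p = 0.0181 and 2e-05). Aurka, the Aurora kinase of centrosomes and spindle poles, had 1606.2 and 1971.9, against 1104.8 and 1467 (-0.48 ± 0.198 SE). Its groups did not overlap, yet it stayed just above the threshold with the replicate number as a term (limma adjusted p = 0.0507). Aurkb, the Aurora kinase of the chromosomal passenger complex, had 840.2 and 850.1, against 712.6 and 685.4 (-0.27 ± 0.18 SE), with close agreement within each group. Plk1, the main Polo kinase of mitosis, had 1353 and 1099.2, against 812.8 and 1216. It differed between the pairs, at -0.73 for number 1 and 0.14 for number 2. Ttk, the checkpoint kinase Mps1, was at -0.21 and Melk, which encodes a kinase of dividing cells, at -0.02. Melk also had opposite signs in the pairs, 0.29 and -0.32.

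Aurkb works in a complex with survivin (Birc5) and the scaffold Incenp. Incenp had signals of 3529.9 and 4151.1, against 3238.2 and 2409.6 (-0.46 ± 0.19 SE; limma adjusted p = 0.626, and 0.0221 with the replicate number as a term). Most of that came from pair 2, at -0.79, with -0.13 in pair 1. The probe set used carried the _x suffix, which marks probes that can bind related transcripts. The other 2 Incenp probe sets, without a suffix, gave -0.40 and -0.25 and did not pass with that term (limma adjusted p = 0.179 and 0.668). Birc5 had 3528.7 and 3975.8, against 3408.9 and 3707.9, a difference of -0.08 ± 0.164 (SE) whose sign turned without original array 2 (0.011).

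The spindle checkpoint genes had a median of -0.06, the nearest to 0 of all roles. Bub1, a kinase that gathers checkpoint proteins at kinetochores, had 1342.4 and 1536.2, against 1330.5 and 1215.1 (-0.18 ± 0.173 SE). Bub3, its binding partner, had 3869.7 and 4274.6, against 3624.8 and 3723.8 (-0.15 ± 0.161 SE). In both genes the groups did not overlap, by narrow margins. Mad2l1 and Bub1b, whose proteins bind Cdc20 and hold back the APC/C, were at 0.08 and 0.03 with overlapping groups.

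The kinetochore genes held the largest difference of all members. Cenpe, the motor that carries chromosomes to the spindle equator, had signals of 546.8 and 790.4, against 380.5 and 349.3. Both resistant values were lower and close together, a difference of -0.85 ± 0.232 (SE), 1.80-fold lower (limma adjusted p = 0.32, and 0.00109 with the replicate number as a term), with -0.52 in pair 1 and -1.17 in pair 2. Cenpf, a large kinetochore protein of G2 and mitosis, had 2067.7 and 1779.6, against 1374.1 and 985.4 (-0.72 ± 0.2 SE; limma adjusted p = 0.329, and 0.00053 with the replicate number as a term). A dimmer Cenpf probe set gave -0.37 and did not pass with that term (limma adjusted p = 0.547). Cenpa, the histone variant that marks the centromere itself, had 2364.4 and 2520.4, against 2463.3 and 2546.4. Its difference of 0.04 had a 95% interval of -0.32 to 0.39. Ndc80 and Nuf2, partners in the complex that grips microtubules, were at -0.33 and -0.09, and their groups overlapped.

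**Figure D2:**
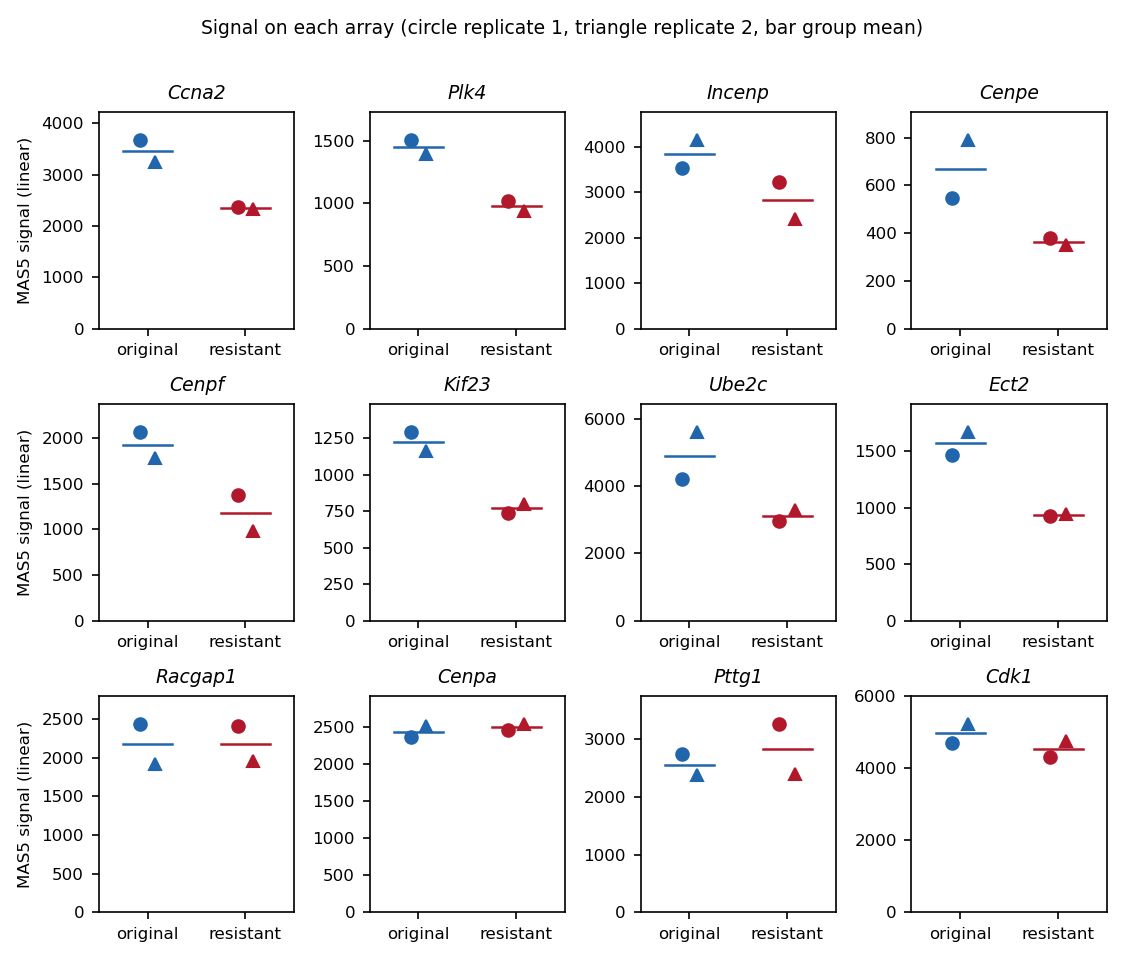
MAS5 signal (linear, axes from 0) on each of the 4 arrays for the 8 members that passed with the replicate number as a term and, in the bottom row, for Racgap1, Cenpa, Pttg1 and Cdk1. Circles are replicate 1, triangles replicate 2 and bars the group means. In the upper 8 panels both resistant points lie below both original points, as for Ect2 (1467.5 and 1668.3 against 927.7 and 945.1), and in the bottom row the groups overlap.

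Of the kinesins, Kif23 and Kif11 differed most. Kif23, the motor of the central spindle, had signals of 1292.5 and 1159.9, against 740.2 and 800.6 (-0.67 ± 0.177 SE; limma adjusted p = 0.299, and 0.0054 with the replicate number as a term). Its second tested probe set gave -1.01 and passed with that term (limma adjusted p = 0.000677). Kif11, which pushes spindle poles apart, had 735.3 and 722.4, against 548.9 and 469. That is -0.52 ± 0.195 (SE), the groups did not overlap, and 2 further probe sets gave -0.53 and -0.71. Kif2c, which takes apart microtubule ends, was at -0.31. The chromosome-arm kinesins Kif4 and Kif22 were at -0.05 and -0.03, and Kif20a, a motor of cytokinesis, at 0.06.

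The 5 genes of spindle proteins were all fitted below 0, with a median of -0.23. Prc1, which bundles the microtubules of the central spindle, had 1445.5 and 1530, against 1077.8 and 1128, without overlap (-0.43 ± 0.168 SE, and -0.57 for its other probe set). Nusap1, a microtubule bundling protein, had 1256.4 and 1001.8, against 1016.7 and 651.2 (-0.46 ± 0.234 SE), and its groups overlapped. Ckap2 was at -0.23 without overlap. Tpx2, which activates Aurora A on the spindle, was at -0.10 and Hmmr at -0.08.

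Among the genes of chromosome structure, Smc4, a core subunit of condensin, had 3382 and 3200.5, against 2705.2 and 2310.6, without overlap (-0.40 ± 0.166 SE), and its other probe sets gave -0.31 and -0.47. Its partner Smc2 was at 0.04 with a 95% interval of -0.33 to 0.41. Top2a, the topoisomerase that untangles sister chromatids, had 4884.9 and 4628.2, against 4516.6 and 3616.1 (-0.24 ± 0.173 SE), again without overlap. The other condensin subunits Ncapd2, Ncapg and Ncaph lay at -0.06, -0.13 and -0.15, and the groups overlapped in each.

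In the group of genes for chromosome separation, Ube2c differed most. It encodes the ubiquitin-conjugating enzyme of the APC/C. Its signals were 4207.8 and 5607.5, against 2957 and 3285.7, a difference of -0.64 ± 0.185 (SE; limma adjusted p = 0.362, and 9e-05 with the replicate number as a term). Cdc20, which activates the APC/C, had 4354.8 and 4455.5, against 4016.2 and 3832.4, a small difference without overlap (-0.17 ± 0.158 SE). A second Cdc20 probe set gave -0.20, and a dim one gave -1.39, with 194.1 and 312 against 174.5 and 47.7. Pttg1 (securin), an APC/C substrate that restrains separase, had 2743.7 and 2381.5, against 3266.7 and 2406.4 (0.13), and Cdca3 was at 0.02. The 3 probe sets of Pttg1 disagreed in sign, the dimmest being at -0.50.

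The cytokinesis genes had a median of -0.32. Ect2, the exchange factor that activates RhoA at the division plane, had the smallest unadjusted p of all members. Its signals of 1467.5 and 1668.3 stood against 927.7 and 945.1. The difference was -0.74 ± 0.172 (SE), 1.67-fold lower (limma adjusted p = 0.199, and 0.000678 with the replicate number as a term), and was similar in the pairs, at -0.66 and -0.82. Cep55, which recruits the machinery of abscission, had 1569.7 and 1570.8, against 1282.8 and 1222.5 (-0.33 ± 0.165 SE, and -0.73 for a dimmer probe set). Anln, a scaffold of the contractile ring, was at -0.32, also without overlap. Racgap1, by contrast in value, had 2434.6 and 1914.9, against 2402.4 and 1953.3, a difference of 0.00 with a 95% interval of -0.41 to 0.42. Its other probe set, nearly as bright, gave 0.19 (limma adjusted p = 0.884). There both resistant arrays lay above both original ones, with 1837.4 and 1650.4 against 2024.1 and 1961.6. Racgap1 forms a complex with Kif23 and docks Ect2, and both of those were lower. Whether they differ from Racgap1 was not tested.

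**Figure D3:**
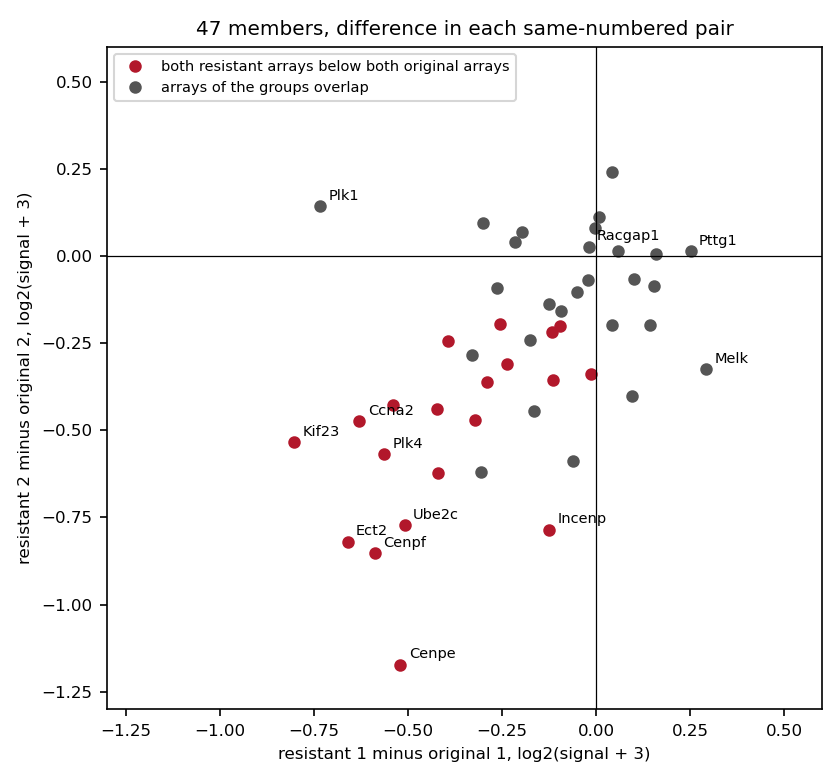
Each point is 1 of the 47 members, with the log2(signal + 3) difference between resistant 1 and original 1 on the horizontal axis and between resistant 2 and original 2 on the vertical axis. The lower left field, below 0 on both axes, holds the 30 genes lower in both pairs, and Plk1 (-0.73 and 0.14) and Melk (0.29 and -0.32) had opposite signs.

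Several members were read by more than 1 probe set. Of the 22 with several tested probe sets, 20 had all of them on the same side of 0, and in 19 all were lower; Ncaph and Pttg1 disagreed. With the replicate number as a term, a dimmer probe set passed lower in Kif11, Prc1, Cep55 and Cdc20, whose brightest did not (limma adjusted p = 0.0116, 0.0209, 0.0244 and 3.2e-05). In that fit 710 of all 13576 tested probe sets passed, in either direction. The Cdc20 probe set had 194.1 and 312 against 174.5 and 47.7, with an SE of 0.511 without that term. Its p-value with the term does not reflect this spread. Over all 79 tested probe sets of the members the median was -0.24, with 67 below 0. The brightest probe set carried the _x suffix in 6 members and the _s suffix in 4, marks of the array design for probes that can bind related transcripts. In the 33 members with a tested probe set free of any suffix, the median over those probe sets was -0.31.

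Other genes of the same processes, taken from lists by function, were set beside the members. Of 31 further kinetochore and spindle genes, 20 lay below 0, with a median of -0.11, and 0 passed the test. With the replicate number as a term 1 passed, 3.23% of this list, near the 3.09% of all genes that passed lower. It was Aspm, a spindle-pole protein, at -0.69 with signals of 1471.8 and 1094.5 against 1011 and 614.9. Of 20 further genes of mitotic entry and exit, 13 lay below 0 (median -0.12), and 1 passed with that term (5%). This was Hmgb2, a chromatin protein of proliferating cells, with signals of 2305 and 2570 against 1403.2 and 1086.9 (-0.98 ± 0.184 SE; limma adjusted p = 0.0984, and 8.29e-08 with the replicate number as a term). Further condensin and cohesin genes had a median of 0.04 over 11, and APC/C subunits and partners one of -0.05 over 16, and none passed in either fit. The members' median of -0.18 was farther below 0 than those of these lists. Without resistant array 2 that order changed, with -0.14 for the members and -0.20 for the genes of mitotic entry and exit. The difference between the lists was not tested.

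Regulators that act on late cell-cycle promoters, listed together with the CDK inhibitors Cdkn1a and Cdkn1b, had a median of 0.07 over 20 measured genes. Trp53, also listed, had no probe set annotated with that symbol alone. Foxm1, the forkhead factor of G2 genes, had 463.7 and 347.1, against 400.4 and 461.7 (0.10, 95% interval -0.41 to 0.61). Mybl2, the Myb factor that joins MuvB, was at 0.16 (-0.35 to 0.68), and E2f1, an activator of S-phase genes, at 0.34 (-0.14 to 0.81). Cdkn1a, the CDK inhibitor p21, had 966.3 and 1743.4, against 1630 and 1808.4 (0.40, 95% interval -0.16 to 0.96). Of this list E2f5, a repressor-type E2F, passed lower with the replicate number as a term (-0.79, limma adjusted p = 0.0109), and 0 passed without it. With that term 5% of the list passed lower, against 3.09% of all genes.

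Genes of DNA replication and S phase lay on the other side of 0. Their median was 0.13 over 44 measured genes, 37 of them above 0. Both resistant arrays were above both original arrays in 21 of the 44 and below in 1, where the shares over all genes were 19.8% and 17.3%. None passed the test over all genes. With the replicate number as a term Ccne1 (cyclin E, 0.91; limma adjusted p = 0.0019) and Rfc3 (a clamp loader subunit, 0.64; limma adjusted p = 0.00206) passed higher, 4.55% of the list against 2.73% of all genes. The opposite signs of the replication and mitosis medians, 0.13 and -0.18, held without each array in turn, and the difference between the lists was not tested.

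**Figure D4:**
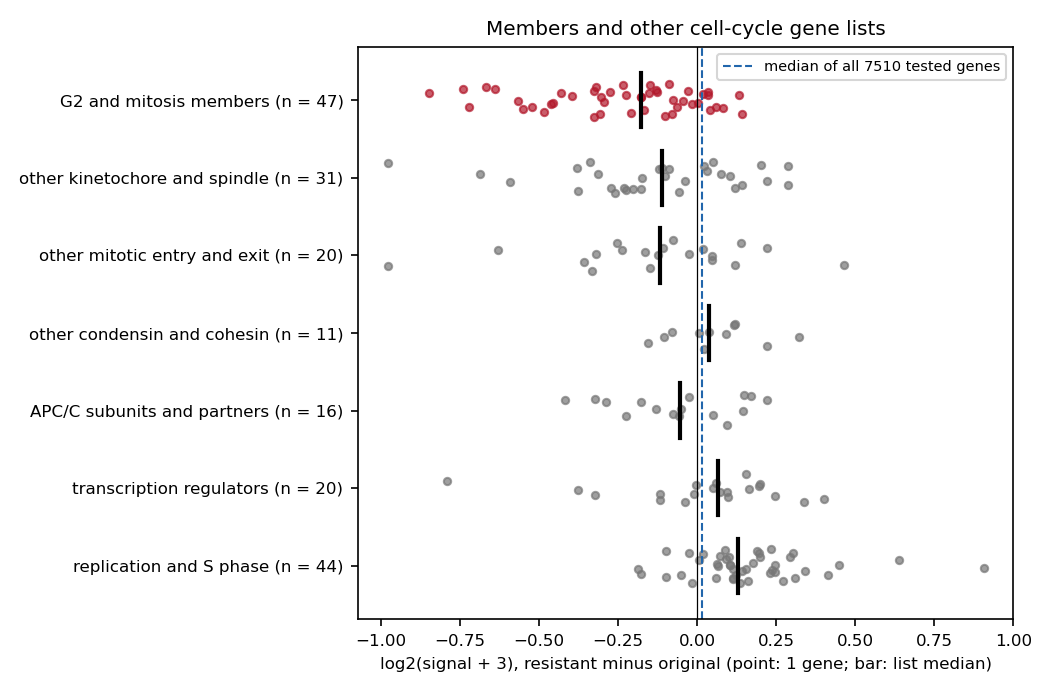
Each point is 1 tested gene, placed by its difference in log2(signal + 3) between resistant and original arrays, for the G2 and mitosis members (n = 47) and 6 further lists. Bars are list medians and the dashed line is the median of all 7510 tested genes (0.02). The members' median lies at -0.18 and that of replication genes at 0.13.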

How the data were processed

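The authors deposited signal intensities on a linear scale, made with MAS5 per the submitters' processing notes (version not given in the sources used here). Symbols came from the platform annotation: 20380 of 22690 probe sets had 1 symbol, 691 several and 1555, besides 64 controls, none listed. The 2% trimmed means of the arrays were made equal and log2(signal + 3) was taken. Probe sets whose mean over the arrays on that scale lay below the 40th percentile (signal 49.1) were left out, and 13576 were tested with limma 3.58.1 in R 4.3.3 (lmFit, eBayes with trend), two-sided, with Benjamini-Hochberg adjustment over all of them. Precision is limited by the number of arrays. The fold changes of dim genes are understated on this scale.

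Values on all arrays are given for 7 core genes where measured, members that passed in either fit and the 2 largest differences per role; the genes without overlap and some others were named after their values were seen. The members and lists were chosen with earlier results of these data known, so no list was tested. The procedure was tested on simulated data, where 60.12% of log2 changes of 1 were called at an adjusted p under 0.05 (limma). Noise there was independent between arrays, and log2 changes of 2 and 3 were planted as well. The share may therefore be too high for the real arrays. Changes under 1, such as those of the members, were not simulated.

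Arrays of the same number deviated together (correlation 0.35 across probe sets), but with 2 pairs and no label that links them the pairing rests on the number and the spiked controls.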

Additional observations from a re-analysis of the deposited data

How the results depend on the processing

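No member passed over all genes with pseudocounts of 16 or 64, without the filter or with it at the 60th percentile, with quantile normalization, without a variance trend, with probe sets averaged or restricted to those without suffix, or without any 1 array. With the replicate block 8 passed. The median of the members ranged from -0.28 to -0.14 when arrays were left out in turn and was -0.31 on probe sets without suffix, which measure 33 members; on their brightest probe sets the same 33 had -0.29. It was -0.17 to -0.23 in the other settings. Filtering on the arithmetic mean signal, or choosing the probe set by mean log2 signal, both added after the data were seen, left it at -0.18. Of 340 values for 23 named members, 1 turned its sign, Birc5 (main -0.08, -0.16 to 0.011 when arrays were left out in turn, above 0 only without original array 2), 8 passed with the replicate block, and the other 331 kept their direction and side of the threshold. Over all probe sets the count of calls moved from 23 to between 0 and 710, the most with the replicate block. With 2 arrays a group, differences of the members' size lie within the reach of single arrays.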
